A study of Mus musculus with 10 samples.

Results

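Chromatin accessibility was described at the genes of 7 transcription factors that drive epithelial-to-mesenchymal transition (EMT): Snai1, Snai2, Twist1, Twist2, Zeb1, Zeb2 and Prrx1. Their members are the ATAC-seq peak regions whose summit lies inside 1 of these genes or within 50 kb of it on mm10. They number 140 of the 184685 regions built from the summits of 9 peak lists, each reaching 250 bp to either side of a summit, with 24 at Snai1, 3 at Snai2, 10 at Twist1, 22 at Twist2, 28 at Zeb1, 40 at Zeb2 and 13 at Prrx1. In EMT, epithelial cells loosen their junctions and become migratory mesenchyme. SNAI and ZEB proteins are zinc finger repressors that bind E-boxes and silence epithelial genes, TWIST proteins are basic helix-loop-helix factors, and PRRX1 is a homeodomain factor of mesenchyme. In the embryonic heart the epicardium, a mesothelial sheet on the surface, undergoes EMT and gives rise to epicardium-derived cells (EPDCs), which enter the heart wall and form fibroblasts and mural cells.

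Cells were sorted from C57BL/6J mouse hearts of genotype Rosa26tdTomato;Wt1CreERT2/+, in which tamoxifen given by oral gavage at E9.5 turns on tdTomato in cells that express Wt1. The mark is thus of Wt1 lineage, and a sorted cell need not express Wt1 at the time of sorting. Epicardium (CD31-tdTomato+PDPN+) came from E11.5 (3 libraries, 6 pooled littermate hearts each) and E17.5 (3 libraries, 4 hearts each). EPDCs (CD31-tdTomato+PDPN-) came from E12.5 (1 library) and E13.5 (2 libraries), the second of which joins a pair of technical replicates, and the labels and the methods give different numbers of pooled E13.5 hearts. All groups share genotype and tamoxifen. Because no EPDC was sampled at the epicardial stages, cell population and embryonic day cannot be told apart in the EPDC comparisons. The lists gave 94907 to 142738 usable summits per library, with more in the E11.5 than in the E17.5 libraries on the whole (119383 to 142738 against 94907 to 127931), and carry no read totals. The EPDC lists alone hold summits on the mitochondrial genome and on scaffolds, so a difference in processing and the difference in population cannot be told apart either.

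Accessibility is given as a score, the −log10 p of a summit divided by the sum over its library and multiplied by 1000000. The median summit of a library scored between 2.54 and 4.84. A score of 0 means that no summit passed the peak caller, which does not show closed chromatin. Differences are on the log2(score + 1) scale with their standard error (SE), and adjusted p-values are of limma over all 130872 regions called in at least 3 of the 9 libraries. A region passed where the adjusted p was under 0.05. Of the member regions, 108 were called in at least 3 libraries and tested (77.1%, against 70.9% of all regions), 42 were called in all 9 (30%, against 24.7%) and 16 in 1 library only. The 50 kb limit is a convention. On either side of each gene, the last region inside it and the first outside it were compared where they lie within 10 kb of the limit, and their mean scores spanned 0.786 to 34 (median 1.02, 6 regions) inside and 0.0505 to 46.3 (median 0.466, 9 regions) outside. For 24 of the 140 regions another protein-coding gene starts nearer than the member, mainly Rnf114, Spata2 and Ube2v1 beside Snai1, Hdac4 beyond Twist2 and Gtdc1 beyond Zeb2.

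**Figure D1:**
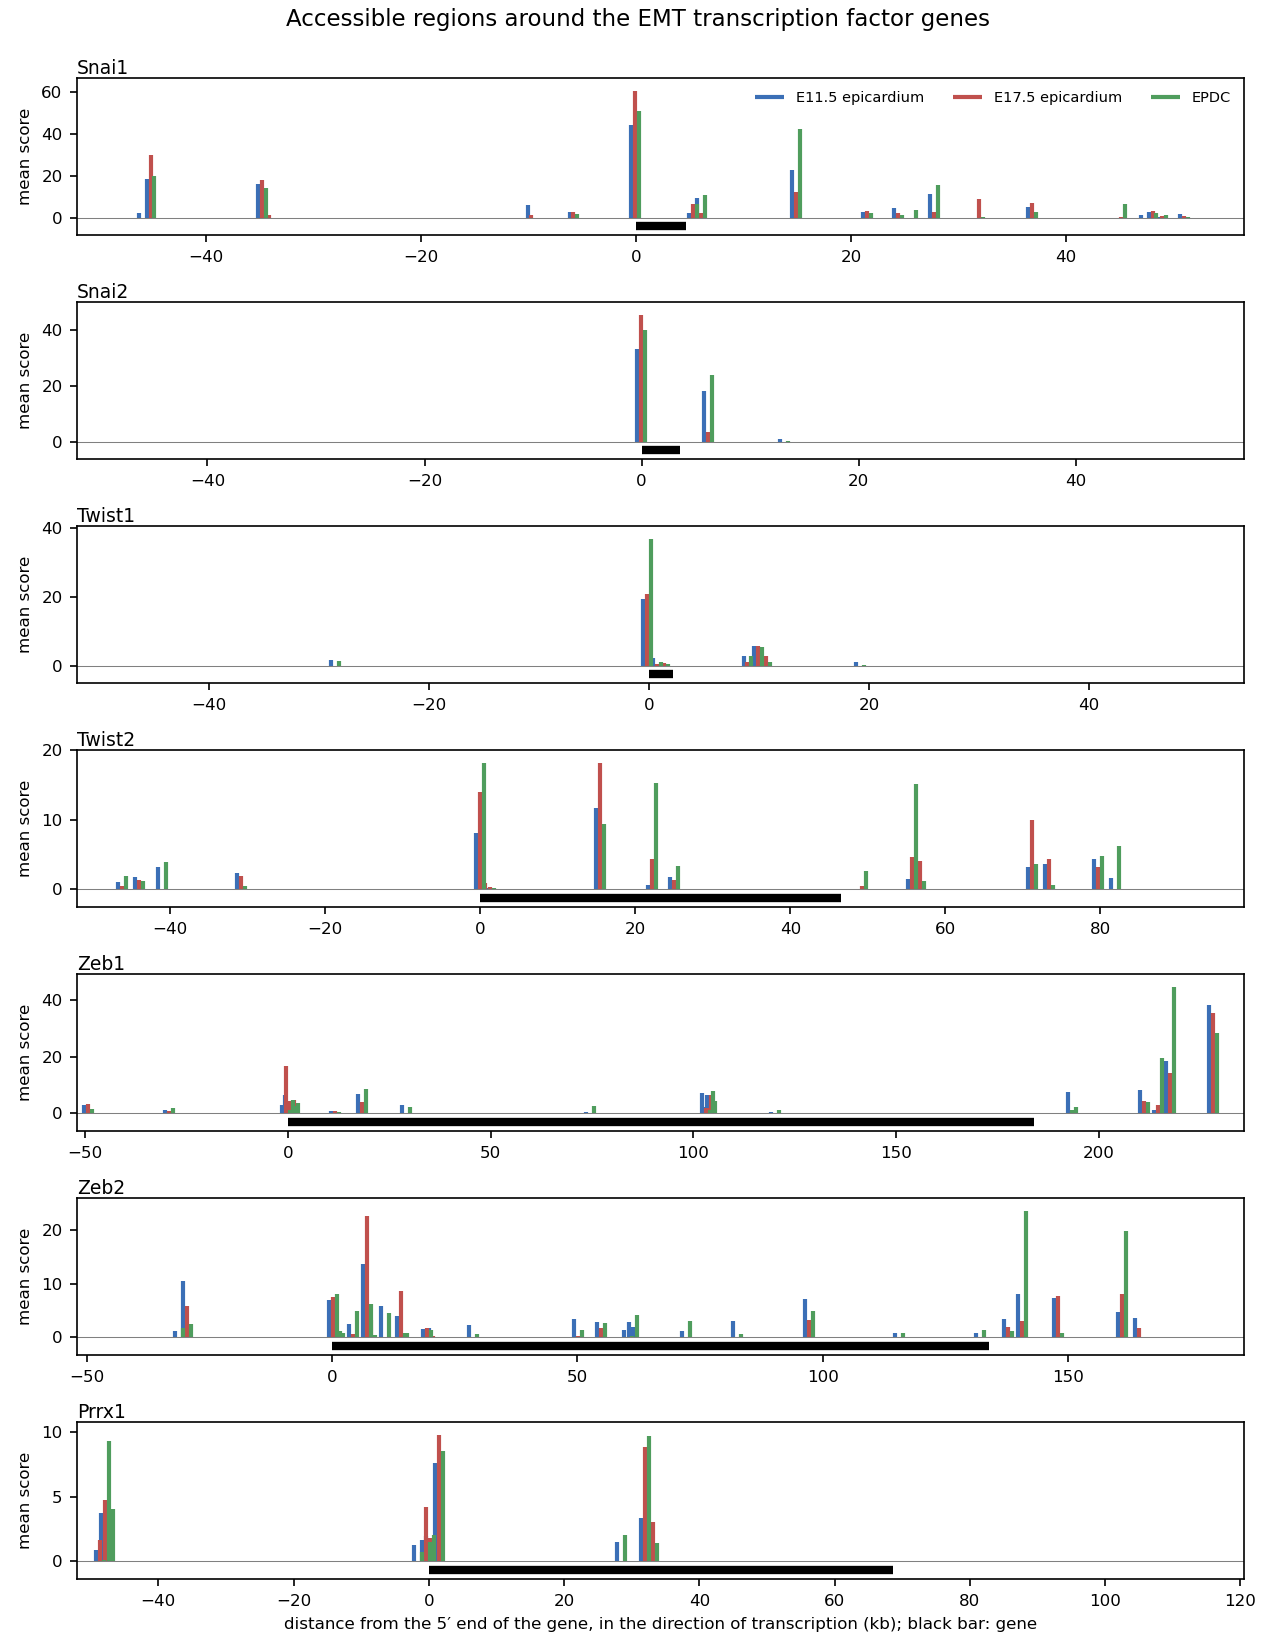
Mean score of each tested region (vertical axis, score as defined in the text) against its distance from the 5′ end of the gene in kb, in the direction of transcription, for the 7 genes. Bars are drawn side by side for the E11.5 epicardium (blue), E17.5 epicardium (red) and EPDCs (green), and black bars mark the genes. Snai2 and Twist1 have few regions and Zeb2 has many, and the EPDC bar stands above both others at Snai1 +14.9 kb, Twist2 +22.2 kb and Zeb2 +141 kb.

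The sequences of 8 regions that carry the results below are shown first, each as the 200 bp around its summit on the plus strand of mm10. Capitals mark matches, on either strand, to a SNAI/ZEB E-box (CAGGTG), the E-box variant CATCTG bound by TWIST factors, the AP-1 site TGANTCA, the TEAD site GGAATG, the GATA site AGATAA and the T-box site AGGTGTGA, which can share letters with CAGGTG. Distances are from the 5′ end of the gene.
Snai2 +6.09 kb, chr16:14711843-14712042: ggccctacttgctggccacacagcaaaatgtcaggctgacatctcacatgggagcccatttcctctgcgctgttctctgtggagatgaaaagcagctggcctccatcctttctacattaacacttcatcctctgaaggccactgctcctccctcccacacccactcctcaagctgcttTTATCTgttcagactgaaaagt
Snai1 +14.9 kb, chr2:167552965-167553164: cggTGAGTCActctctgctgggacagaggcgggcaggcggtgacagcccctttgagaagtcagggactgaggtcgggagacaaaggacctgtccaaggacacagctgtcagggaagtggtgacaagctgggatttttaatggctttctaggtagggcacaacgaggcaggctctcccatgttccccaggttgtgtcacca
Twist1 promoter, chr12:33957432-33957631: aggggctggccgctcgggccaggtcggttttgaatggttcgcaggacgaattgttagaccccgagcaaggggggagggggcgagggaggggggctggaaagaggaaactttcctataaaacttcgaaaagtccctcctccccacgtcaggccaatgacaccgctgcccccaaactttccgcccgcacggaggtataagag
Twist2 +22.2 kb, chr1:91823542-91823741: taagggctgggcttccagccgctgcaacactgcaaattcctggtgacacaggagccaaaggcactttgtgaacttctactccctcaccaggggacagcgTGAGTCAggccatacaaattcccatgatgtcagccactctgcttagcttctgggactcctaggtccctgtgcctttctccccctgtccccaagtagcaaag
Twist2 +55.7 kb, chr1:91857037-91857236: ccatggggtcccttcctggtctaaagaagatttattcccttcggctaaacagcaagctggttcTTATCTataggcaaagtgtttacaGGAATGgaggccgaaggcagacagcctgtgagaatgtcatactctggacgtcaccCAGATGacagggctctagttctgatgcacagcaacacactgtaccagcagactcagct
Zeb2 +10.8 kb, chr2:45106455-45106654: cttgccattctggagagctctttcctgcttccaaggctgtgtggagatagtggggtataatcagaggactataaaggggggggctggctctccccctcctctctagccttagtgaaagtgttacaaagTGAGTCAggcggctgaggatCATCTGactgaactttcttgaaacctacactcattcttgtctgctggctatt
Zeb2 +141 kb, chr2:44976585-44976784: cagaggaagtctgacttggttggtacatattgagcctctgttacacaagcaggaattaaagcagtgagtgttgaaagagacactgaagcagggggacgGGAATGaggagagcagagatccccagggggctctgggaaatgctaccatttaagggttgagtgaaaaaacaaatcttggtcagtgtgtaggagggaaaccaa
Zeb2 +148 kb, chr2:44969357-44969556: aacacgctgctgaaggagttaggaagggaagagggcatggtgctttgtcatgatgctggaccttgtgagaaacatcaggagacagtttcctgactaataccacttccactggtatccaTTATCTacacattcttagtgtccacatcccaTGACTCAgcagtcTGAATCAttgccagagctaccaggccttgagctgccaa
The Snai2 window holds a GATA match, the Snai1 window an AP-1 match, Twist2 +22.2 kb an AP-1 match, Twist2 +55.7 kb a GATA, a TEAD and a TWIST-type match, the Twist1 promoter window none of the 6 motifs, and Zeb2 +10.8 kb an AP-1 match followed by a TWIST-type E-box. Zeb2 +141 kb, highest in EPDCs, holds a TEAD match, and Zeb2 +148 kb, lowest in EPDCs, holds a pair of AP-1 matches and a GATA match. A match is a stretch of letters and does not show that a factor binds there.

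Among the 108 tested member regions, EPDCs had a smaller share of lower regions than the genome at large, against either epicardial stage. Against the E11.5 epicardium, 17 regions were higher at E17.5 (15.7%, against 17.4% of all tested regions) and 28 lower (25.9%, against 30%). The 17 came to 9 without E17.5 replicate 3 (against 13796 of 123642 regions in all) and to 11 without E17.5 replicate 2 (against 15136 of 122503). They came to 10 by rank percentile (9.26%, against 11.2% of all regions) and to 8 by fold enrichment (7.41%, against 13%). EPDCs against E11.5 epicardium gave 21 higher (19.4%, against 16% of all regions) and 21 lower (19.4%, against 31.7%). EPDCs against E17.5 epicardium gave 32 higher (29.6%, against 24.3%) and 16 lower (14.8%, against 25.2%). Lower regions in EPDCs against E11.5 came to 12 by fold enrichment (11.1%, against 20.5% of all regions) and 13 after quantile normalisation (12%, against 23.8%). Those against E17.5 came to 10 by rank percentile (9.26%, against 20%). The shares at E17.5 against E11.5 lie near the background. By fold enrichment in place of the score, 13% of members were higher in EPDCs than at E11.5, against 15.5% of all regions, so the larger share of higher members turned with the scale, while 11.1% were lower, against 20.5%. The differences between these shares were not tested. Of the calls, 8 of 28, 5 of 21, 7 of 21 and 6 of 32 (lower at E17.5 than at E11.5, higher and lower in EPDCs than at E11.5, higher in EPDCs than at E17.5) are of regions that entered the test only through the libraries of the group where they were high. Over all regions these calls numbered 15184 of 39207, 8853 of 20928, 15135 of 41492 and 9758 of 31860. In the other directions 0 member calls are of this kind. Over all regions they were 9717 of 22728 (higher at E17.5 than at E11.5) and 10004 of 32998 (lower in EPDCs than at E17.5). All regions together shifted by −0.21 (E17.5 − E11.5) and −0.31 (EPDC − E11.5) in the median and by 0.00 in EPDC − E17.5, beside which the member medians were −0.32, −0.09 and 0.14. These 3 comparisons share their libraries pairwise and are not independent.

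Read over the 3 groups, 18 member regions were highest in EPDCs in both tests (16.7%, against 12.4% of all regions), and 16 were lowest at E17.5 in both (14.8%, against 12.1%). In contrast, 8 were highest at E17.5 (7.41% against 13.2%) and 7 lowest in EPDCs (6.48% against 12.7%). The E11.5 epicardium was highest at 13 (12% against 17.1%) and lowest at 7 (6.48% against 2.83%), of which 3 lie at Twist2. A region that ran in steps counts in 2 of these patterns, and the differences between the shares were not tested. Of the 16 lowest at E17.5, 7 lie at Zeb2 and 3 at Snai1. The 18 highest in EPDCs are spread over Twist2, Zeb1 and Zeb2 (4 each), Snai1 (3), Prrx1 (2) and Twist1 (1), and none is at Snai2. Of the 18, 5 entered the test only through the EPDC libraries. The E12.5 EPDC library, itself among the values that chose these regions, scored below both E13.5 EPDC libraries in 12 of them. Of all 108 tested regions, 42 passed in no comparison (38.9%, against 25.8%).

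SNAI1 and SNAI2 repress E-cadherin and other epithelial genes. The promoter of Snai1 (ENSMUSG00000042821, chr2:167538195-167542814, plus strand) is the strongest member region. Its scores were 50.4, 38.2 and 43.9 in E11.5 epicardium, 59.6, 60.5 and 61.1 in E17.5 epicardium and 49.0, 51.4 and 52.7 in EPDCs. The E17.5 libraries stood above all the others, by 0.45 (SE 0.10, adjusted p = 0.00527) over E11.5. The difference did not pass by rank within a library (adjusted p = 0.559), by fold enrichment (adjusted p = 0.472) or after quantile normalisation (adjusted p = 0.081).

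Downstream of Snai1 the order of the groups was another. An intergenic region 14.9 kb from the gene's 5′ end, its strongest distal region, scored 25.4, 24.1 and 18.4 at E11.5, 8.96, 14.2 and 14.0 at E17.5 and 34.8, 45.4 and 45.7 in EPDCs. The groups do not overlap. The region fell from E11.5 to E17.5 by 0.83 on the log2 scale (SE 0.20, adjusted p = 0.00851) and stood higher in EPDCs than at E11.5 by 0.87 (SE 0.20, adjusted p = 0.00722) and than at E17.5 by 1.70 (SE 0.20, adjusted p = 0.000133). The last held under every alternative, while by fold enrichment the other 2 did not pass, nor did EPDC − E11.5 by rank percentile (adjusted p = 0.364). At +27.7 kb, in an intron of the non-coding gene Gm11476, the E11.5 libraries averaged 11.4 ± 0.326 (SD, n = 3), and scores were 4.25, 3.21 and 0 at E17.5 and 10.9, 15.8 and 20.1 in EPDCs. This region too was lowest at E17.5, by 2.14 under E11.5 (SE 0.55, adjusted p = 0.0114) and 2.52 under EPDCs (SE 0.55, adjusted p = 0.00439). The former did not pass by fold enrichment (adjusted p = 0.0559) or with a pseudocount of 0.1 (adjusted p = 0.0745).

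Some weaker regions around Snai1 were called mainly in 1 population. The 4 described here entered the test only through the libraries in which they were high, so their values are given with no test. At −45.9 kb, in an intron of Spata2 and near the start of Rnf114, the E11.5 libraries averaged 2.36 ± 0.33 (SD, n = 3) and no other library held a summit, a direction that turned when any overlapping interval was counted. At +25.7 kb (intron of Gm11476) a summit was present in the 3 EPDC libraries, with scores of 2.99, 5.12 and 2.99, and in no epicardial library. At +45.2 kb, nearer to Ube2v1, EPDC scores were 4.5, 6.75 and 8.22, and 1 of 6 epicardial libraries held a summit, at 1.02. The region at −9.73 kb went the other way, with 5.63, 5.94 and 6.63 at E11.5, 4.05 in 1 of 3 E17.5 libraries and no summit in EPDCs. Over the whole gene with its flanks, Snai1 summed to 179, 163 and 178 at E11.5, 180, 203 and 208 at E17.5 and 177, 198 and 213 in EPDCs, and passed in no comparison.

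Snai2 (ENSMUSG00000022676, chr16:14705852-14709385, plus strand) had 3 regions, of which the promoter and 1 downstream region were called in every library. Promoter scores were 39.1, 30.5 and 30.6 at E11.5, 45.9, 41.2 and 49.7 at E17.5 and 41.4, 39.3 and 39.3 in EPDCs. The E17.5 promoter was higher than that of E11.5 by 0.44 (SE 0.12, adjusted p = 0.012), which was lost without E17.5 replicate 3 (0.38, adjusted p = 0.0516), by rank percentile (adjusted p = 0.414) and by fold enrichment (adjusted p = 0.501). The intergenic region at +6.09 kb, past the 3′ end of the gene, scored 16.1, 20.4 and 18.5 at E11.5, 5.32, 3.18 and 2.16 at E17.5 and 21.7, 23.3 and 26.3 in EPDCs. It fell by 2.14 from E11.5 to E17.5 (SE 0.24, adjusted p = 0.000106) and was 2.50 higher in EPDCs than at E17.5 (SE 0.24, adjusted p = 3.52e-05). Both held under every alternative and with each library left out. EPDCs and E11.5 epicardium differed by 0.36 (SE 0.24, adjusted p = 0.241). The summed score was 56.5, 57.0 and 50.2, then 51.2, 44.4 and 95.5, and 95.5, 62.6 and 65.8, and did not pass. The libraries placed 2 to 4 summits at this gene. The sum counts each summit, whereas the score of a region is that of its strongest summit, and in E17.5 replicate 3 and the E12.5 EPDC library a further promoter summit, of 43.6 and 32.4, enters the sum alone.

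TWIST1 and TWIST2 are basic helix-loop-helix factors of mesenchyme. Both promoters had their highest mean score in EPDCs, although at Twist2 the EPDC and E17.5 libraries overlapped. At Twist1 (ENSMUSG00000035799, chr12:33957671-33959829, plus strand) the promoter scored 22.2, 15.9 and 19.8 at E11.5, 27.4, 14.6 and 20.3 at E17.5 and 37.0, 38.1 and 35.3 in EPDCs. The 3 EPDC libraries stood above all 6 epicardial libraries, by 0.91 over E11.5 (SE 0.21, adjusted p = 0.00672) and 0.84 over E17.5 (SE 0.21, adjusted p = 0.00893). The 2 epicardial stages overlapped (0.07, SE 0.21, adjusted p = 0.832). With the caller's fold enrichment in place of the score, the EPDC differences did not pass (adjusted p = 0.0512 and 0.0669). The strongest distal region of Twist1, at +9.92 kb, was level over the groups, with means of 5.56 ± 1.03, 5.68 ± 0.0767 and 5.5 ± 0.288 (SD, n = 3). Of the 8 tested Twist1 regions, 6 passed in no comparison, and the summed score (39.9, 39.0 and 45.1, then 35.9, 49.6 and 45.4, and 50.6, 59.6 and 51.1) passed in none.

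At Twist2 (ENSMUSG00000007805, chr1:91801461-91848028, plus strand) both later groups stood above E11.5. Promoter scores were 8.54, 7.71 and 8.14 at E11.5, 13.2, 11.1 and 17.9 at E17.5, and averaged 18.2 ± 4.07 (SD, n = 3) in EPDCs, where the E12.5 library was the lowest. Both later groups lay above E11.5 without overlap, by 0.70 at E17.5 (SE 0.21, adjusted p = 0.0223) and by 1.05 in EPDCs (SE 0.21, adjusted p = 0.00306). The former was lost without E11.5 replicate 2 (0.66, adjusted p = 0.0656) or 3 (0.70, adjusted p = 0.0549) or E17.5 replicate 3 (0.52, adjusted p = 0.077) and by rank percentile (adjusted p = 0.0582), while the EPDC difference held under every alternative. EPDCs and E17.5 did not pass against each other (adjusted p = 0.195).

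A pair of distal regions of Twist2 rose in steps from E11.5 through E17.5 to EPDCs. At +22.2 kb, in an exon of the non-coding gene Gm29101, scores were 0, 1.14 and 0.673 at E11.5, 5.52, 3.08 and 4.35 at E17.5 and 13.0, 13.9 and 19.1 in EPDCs. At +55.7 kb, beyond the 3′ end, they were 1.06, 1.26 and 2.18, then 6.27, 3.0 and 4.75, and 15.9, 13.6 and 16.0. No group overlapped another at either region. EPDCs exceeded E11.5 by 3.40 (SE 0.31, adjusted p = 4.74e-05) and 2.72 (SE 0.26, adjusted p = 5.21e-05), and E17.5 exceeded E11.5 by 1.77 (SE 0.31, adjusted p = 0.00158) and 1.17 (SE 0.26, adjusted p = 0.00498). EPDCs exceeded E17.5 by 1.63 (SE 0.31, adjusted p = 0.00218) and 1.55 (SE 0.26, adjusted p = 0.000887), of which the former did not pass by fold enrichment or with a pseudocount of 0.1.

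Other Twist2 regions set the E17.5 epicardium or the EPDCs apart. At +71.1 kb it scored 10.7, 8.14 and 10.9 against 3.19, 3.52 and 3.17 at E11.5 and 3.49, 3.17 and 4.25 in EPDCs (E17.5 − E11.5 1.34, SE 0.17, adjusted p = 0.000222). This region lies nearer to the start of Hdac4. The intronic region at +15.4 kb was also highest at E17.5 (17.7, 19.8 and 16.8), above E11.5 (13.4, 8.68 and 12.9) by 0.61 (SE 0.16, adjusted p = 0.0141; without E17.5 replicate 2, 0.55 and 0.0517) and above EPDCs (9.3, 9.78 and 9.15; EPDC − E17.5 −0.87, SE 0.16, adjusted p = 0.00196). Neither difference passed by fold enrichment (adjusted p = 0.0939 and 0.0735), nor the former by rank percentile (adjusted p = 0.178). The region at −41.1 kb was the reverse, with no summit in any E17.5 library, 1.91, 3.96 and 3.6 at E11.5 and 3.02, 5.07 and 3.64 in EPDCs (E17.5 − E11.5 −2.02, SE 0.26, adjusted p = 0.000249). At +81.9 kb, also nearer to the start of Hdac4, E17.5 again held no summit, with 3.03, 0.606 and 1.14 at E11.5 and 4.46, 9.11 and 4.97 in EPDCs. EPDCs were highest there, by 2.79 over E17.5 (SE 0.37, adjusted p = 0.000236) and 1.52 over E11.5 (SE 0.37, adjusted p = 0.00825). The E17.5 − E11.5 difference (−1.27, adjusted p = 0.0197) did not pass by rank percentile, quantile normalisation, a stricter q or equal numbers of summits. It was also lost without E11.5 replicate 1 or E17.5 replicate 3. At +73.4 kb, likewise nearer to Hdac4, EPDCs were instead the lowest, with 0, 0 and 1.87. The E11.5 libraries scored 2.77, 4.3 and 3.85 and those of E17.5 4.52, 3.35 and 5.35. EPDCs were lower there than E11.5 (EPDC − E11.5 −1.69, SE 0.41, adjusted p = 0.00856) and than E17.5 (EPDC − E17.5 −1.91, SE 0.41, adjusted p = 0.00399).

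**Figure D2:**
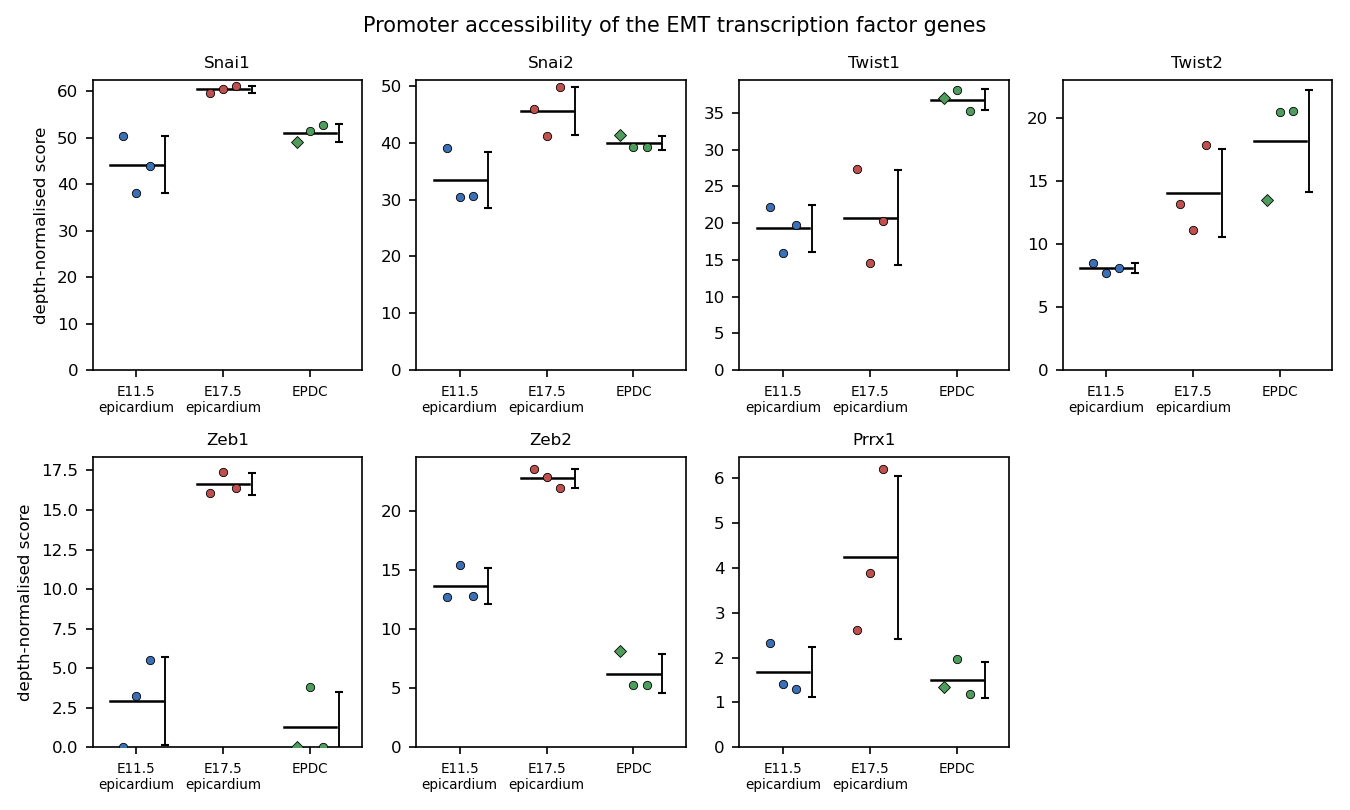
Score of the promoter region of each gene (vertical axis, from 0) in the 9 libraries, by group. Points are libraries, the diamond is the E12.5 EPDC library, lines are group means and bars beside them the SD (n = 3, cut at 0 where they would pass below it). Twist1 scored highest in EPDCs, and Twist2 had its highest mean there but overlapped with E17.5. The Zeb1, Zeb2 and Prrx1 regions scored highest at E17.5.

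ZEB1 and ZEB2 are large repressors with zinc finger clusters at both ends. Zeb1 lies on chromosome 18 (ENSMUSG00000024238, chr18:5591860-5775467, plus strand), and its strongest regions were not at the promoter but far past its 3′ end. The region at +228 kb scored 43.8, 35.2 and 35.3 at E11.5, 34.8, 35.6 and 36.1 at E17.5 and 37.3, 24.1 and 24.2 in EPDCs, and passed in no comparison. Nearby, at +215 kb, scores were 1.17, 1.61 and 1.08 at E11.5, 3.08, 2.31 and 3.9 at E17.5 and 12.6, 24.8 and 21.4 in EPDCs. EPDCs stood apart there, by 3.13 over E11.5 (SE 0.27, adjusted p = 3.29e-05) and 2.30 over E17.5 (SE 0.27, adjusted p = 0.000116). The region next to it, at +218 kb, named after its values were seen, was also highest in EPDCs, with 18.6 as its E11.5 mean, 18.5, 10.4 and 13.4 in the E17.5 libraries and 48.1, 45.3 and 40.6 in EPDCs (EPDC − E11.5 1.22, SE 0.18, adjusted p = 0.000642). At +193 kb the E11.5 epicardium led, with 5.92, 8.28 and 8.03 against 1.44, 0.811 and 0 at E17.5 and 2.44, 2.24 and 2.05 in EPDCs (E17.5 − E11.5 −2.35, SE 0.32, adjusted p = 0.000338). Another region of the same rounded distance was high in EPDCs, and entered the test only through the EPDC libraries. In the gene, the intronic region at +103 kb averaged 7.13 ± 1.31 at E11.5, 1.96 ± 1.76 at E17.5 and 1.32 ± 0.229 in EPDCs (SD, n = 3, EPDC − E11.5 −1.80, SE 0.49, adjusted p = 0.0153). That difference did not pass by fold enrichment (adjusted p = 0.188), with a pseudocount of 0.1 (adjusted p = 0.163) or with interval overlap (adjusted p = 0.208).

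The promoter of Zeb1 showed a further pattern. Its strongest region, with a summit 0.545 kb before the gene in an exon of the non-coding gene Gm2238, scored 16.1, 17.4 and 16.4 at E17.5, but 0, 3.23 and 5.54 at E11.5 and 0, 3.83 and 0 in EPDCs. It was 3.38 lower in EPDCs than at E17.5 (EPDC − E17.5 −3.38, SE 0.78, adjusted p = 0.00582) and 2.54 higher at E17.5 than at E11.5 (SE 0.78, adjusted p = 0.0252). The latter was lost without E11.5 replicate 1 (1.74, adjusted p = 0.0623) or any of E17.5 replicates 1, 2 and 3 (2.56, 2.51 and 2.55, adjusted p = 0.0547, 0.0591 and 0.0572), by rank percentile (adjusted p = 0.0719), by fold enrichment (adjusted p = 0.197) and with a pseudocount of 0.1 (adjusted p = 0.145), and the former by fold enrichment (adjusted p = 0.0601). A second promoter region, at +0.15 kb and chosen after its values were seen, scored 7.91, 5.71 and 5.53, then 4.05, 3.77 and 5.11, and 4.47, 5.39 and 4.52, and passed in no comparison. Summed over the gene and its flanks, Zeb1 gave 133, 135 and 123 at E11.5, 153, 147 and 106 at E17.5 and 185, 186 and 158 in EPDCs, the EPDC libraries being above all others.

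Zeb2 (ENSMUSG00000026872, chr2:44983632-45117395, minus strand) had the most regions, 40, of which 29 were tested. From E11.5 to E17.5, 12 were lower and 4 higher, against 30% and 17.4% of all regions. The 4 came to 2 by rank percentile and 1 by fold enrichment, against 11.2% and 13% of all regions. With equal numbers of top summits per library, 7 of 22 were lower, against 25.4% of all regions. After quantile normalisation 8 of 29 were, against 24%. The region at +10.8 kb, in an exon of Zeb2, scored 3.8, 8.45 and 5.52 at E11.5 and 4.32, 4.96 and 4.51 in EPDCs, and was called in no E17.5 library (E17.5 − E11.5 −2.74, SE 0.25, adjusted p = 3.87e-05). It was 2.48 higher in EPDCs than at E17.5 (SE 0.25, adjusted p = 5.12e-05). Both held under every alternative.

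The Zeb2 promoters did not follow 1 pattern. The strongest, at +7.0 kb in an exon and near the start of a protein-coding transcript, scored 12.7, 15.4 and 12.8 at E11.5, 23.5, 22.8 and 21.9 at E17.5 and 8.09, 5.23 and 5.26 in EPDCs. EPDCs lay below both epicardial stages, by −1.05 from E11.5 (SE 0.17, adjusted p = 0.000937) and −1.75 from E17.5 (SE 0.17, adjusted p = 3.74e-05), and E17.5 was above E11.5 by 0.70 (SE 0.17, adjusted p = 0.00787). By fold enrichment the EPDC − E17.5 difference alone passed, and by rank percentile the E17.5 − E11.5 difference did not (adjusted p = 0.244). A pair of other promoter regions was chosen after their values were seen. At the 5′ end of the gene the promoter scored 7.83, 5.66 and 7.46, then 6.34, 8.28 and 8.12, and 5.37, 8.65 and 10.1. The groups overlapped and no comparison passed. At +4.26 kb, where Zeb2 overlaps its antisense gene Zeb2os, scores were 1.76, 2.87 and 2.83, then 0, 1.79 and 0, and 3.7, 6.52 and 4.54. This promoter was highest in EPDCs, by 2.04 over E17.5 (SE 0.41, adjusted p = 0.00288). Regions just inside, at +7.88 kb and +13.9 kb, averaged 0.461 ± 0.423 and 0.833 ± 0.722 in EPDCs and 3.21 ± 1.4 and 8.65 ± 0.822 at E17.5 (SD, n = 3, EPDC − E17.5 −1.52 and −2.49, adjusted p = 0.00261 and 0.000336).

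Beyond its 3′ end, Zeb2 had regions of opposite behaviour side by side. At +141 kb scores were 7.69, 6.63 and 9.87 at E11.5, 3.57, 2.18 and 3.53 at E17.5 and 27.2, 22.9 and 21.1 in EPDCs. At +161 kb, nearer to Gtdc1, they were 5.49, 4.1 and 4.74, then 8.05, 6.98 and 9.55, and 16.9, 23.0 and 19.5. Both were highest in EPDCs, by 1.46 (SE 0.20, adjusted p = 0.000425) and 1.84 (SE 0.17, adjusted p = 4.64e-05) over E11.5, and by 2.61 (SE 0.20, adjusted p = 1.19e-05) and 1.18 (SE 0.17, adjusted p = 0.000402) over E17.5. Between them, at +148 kb, scores were 5.95, 9.65 and 6.38, then 5.99, 7.26 and 9.8, and 1.76, 0 and 0.856. There EPDCs were the lowest, by −2.24 from E11.5 (SE 0.37, adjusted p = 0.00115) and −2.31 from E17.5 (SE 0.37, adjusted p = 0.000776). The last named region on this side, at +164 kb, averaged 3.6 ± 1.72 at E11.5, 1.73 ± 0.368 at E17.5 and 0.164 ± 0.284 in EPDCs (SD, n = 3, EPDC − E11.5 −1.94, SE 0.31, adjusted p = 0.000873).

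Upstream of Zeb2, at −29.6 kb, scores fell from 10.3, 12.3 and 9.03 at E11.5 through 7.19, 4.2 and 6.02 at E17.5 to 2.44, 2.37 and 2.77 in EPDCs. All 3 comparisons passed, with EPDC − E11.5 −1.70 (SE 0.20, adjusted p = 0.000177), EPDC − E17.5 −0.92 (SE 0.20, adjusted p = 0.00429) and E17.5 − E11.5 −0.78 (SE 0.20, adjusted p = 0.0116), of which the last was lost without E11.5 replicate 2 (−0.67, adjusted p = 0.0516) and by fold enrichment (adjusted p = 0.323).

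**Figure D3:**
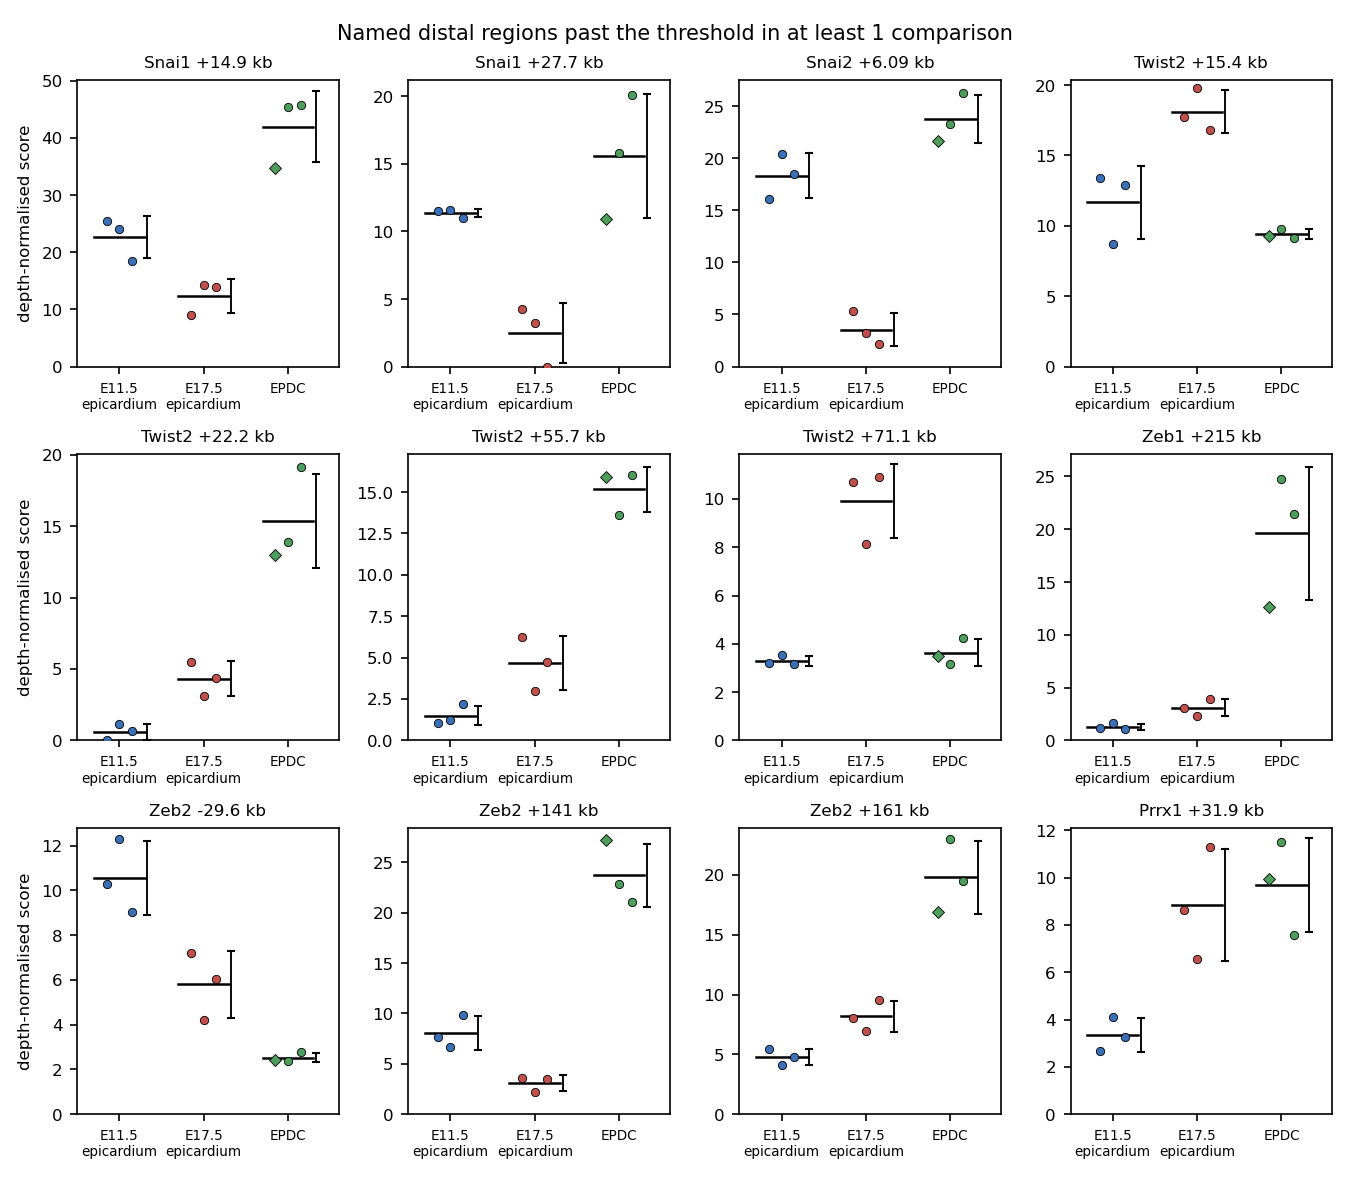
Scores (vertical axis, from 0) of 12 named distal regions in the 9 libraries, by group. Points are libraries, the diamond is the E12.5 EPDC library, lines are group means and bars the SD (n = 3). Snai2 +6.09 kb and Snai1 +27.7 kb fell at E17.5 and stood high in both E11.5 epicardium and EPDCs, Twist2 +22.2 and +55.7 kb rose in steps, and Zeb2 −29.6 kb fell in steps.

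Prrx1 (ENSMUSG00000026586, chr1:163245119-163313710, minus strand) encodes a homeodomain factor of limb, craniofacial and cardiac mesenchyme. Its regions were weak compared with those of Snai1. The intronic region at +31.9 kb scored 2.67, 4.12 and 3.25 at E11.5, 8.64, 6.57 and 11.3 at E17.5 and 9.68 ± 2.0 (SD, n = 3) in EPDCs. Both later groups lay above E11.5, by 1.16 (SE 0.23, adjusted p = 0.00305) and 1.29 (SE 0.23, adjusted p = 0.0018), and overlapped each other (0.13, SE 0.23, adjusted p = 0.69). This held under every alternative. The strongest Prrx1 region, intronic at +1.56 kb, averaged 7.6 ± 1.24, 9.83 ± 1.96 and 8.59 ± 1.04 (SD, n = 3) and passed in no comparison. The promoter scored 2.32, 1.42 and 1.3 at E11.5, 2.62, 3.88 and 6.21 at E17.5 and 1.35, 1.96 and 1.19 in EPDCs, with E17.5 − E11.5 0.93 (SE 0.29, adjusted p = 0.0279) and EPDC − E17.5 −1.02 (SE 0.29, adjusted p = 0.017). The former did not pass without E11.5 replicate 2 (0.86, adjusted p = 0.0817) or 3 (0.83, adjusted p = 0.0867) or E17.5 replicate 2 (0.95, adjusted p = 0.0627) or 3 (0.67, adjusted p = 0.106), by rank percentile (adjusted p = 0.0696) or with interval overlap (adjusted p = 0.213). The latter did not without E17.5 replicate 3 (−0.76, adjusted p = 0.0669) or E13.5 EPDC replicate 2 (−0.93, adjusted p = 0.0568), nor by rank percentile, quantile normalisation, equal numbers of summits or interval overlap (adjusted p = 0.0946, 0.0681, 0.115 and 0.644).

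Over the promoters, 6 of the 7 genes (all but Twist1) were higher at E17.5 than at E11.5 and none lower, against 24.8% higher and 9.94% lower among the strongest promoter regions of 15400 protein-coding genes. EPDCs against E11.5 gave 2 higher (Twist1 and Twist2) and 1 lower (Zeb2), against 20.8% and 9.8% of all promoters. EPDCs against E17.5 gave 1 promoter higher (Twist1) and 3 lower (Zeb1, Zeb2 and Prrx1), against 15.2% and 19%. The E17.5 count depends on the scale. By fold enrichment 2 promoters passed, and by rank percentile 0 did (3 at an unadjusted p under 0.05). Without E17.5 replicate 3 the count was 2.

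Summed over each gene and its 50 kb flanks, scores were fitted for all 19702 protein-coding genes with enough summits. Twist2 gave 54.3, 62.1 and 53.6 at E11.5, 69.1, 82.4 and 74.4 at E17.5 and 85.8, 93.8 and 105 in EPDCs, and rose in all 3 comparisons. EPDCs exceeded E11.5 by 0.73 (SE 0.12, adjusted p = 0.000395), E17.5 exceeded E11.5 by 0.40 (SE 0.12, adjusted p = 0.0131) and EPDCs exceeded E17.5 by 0.33 (SE 0.12, adjusted p = 0.0298). The E17.5 gain was lost without E17.5 replicate 2 (0.34, adjusted p = 0.0511). The last was lost without E17.5 replicate 1 (0.27, adjusted p = 0.0963) or 3 (0.32, adjusted p = 0.0722) or E13.5 EPDC replicate 1 (0.33, adjusted p = 0.064) or 2 (0.25, adjusted p = 0.12). Prrx1 gave 29.6, 26.8 and 29.2, then 36.2, 47.1 and 48.8, and 40.9, 46.5 and 44.4, above E11.5 by 0.60 at E17.5 (adjusted p = 0.00522) and 0.61 in EPDCs (adjusted p = 0.00593). Zeb1, with the values given above, was higher in EPDCs by 0.43 over E11.5 (adjusted p = 0.0181) and by 0.40 over E17.5 (adjusted p = 0.0187).

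The Zeb1 calls rest on the flank and on single libraries. With flanks of 20 kb, which leave out its strongest regions, the differences were −0.15 (adjusted p = 0.473) and 0.13 (adjusted p = 0.508). The difference from E11.5 was also lost without E11.5 replicate 3 (0.39, adjusted p = 0.0612) or E13.5 EPDC replicate 1 (0.39, adjusted p = 0.0577), and that from E17.5 without E17.5 replicate 3 (0.23, adjusted p = 0.0672) or E13.5 EPDC replicate 1 (0.36, adjusted p = 0.0561). Zeb2 was the 1 gene whose sum fell, from 114, 139 and 112 at E11.5 to 96.0, 95.4 and 96.7 at E17.5 (−0.33, adjusted p = 0.0124; without E11.5 replicate 2, −0.24 and 0.0641, by fold enrichment 0.0847 and with equal numbers of summits 0.14), with 104, 110 and 103 in EPDCs. In counts, E17.5 against E11.5 gave 2 of 7 genes higher and 1 lower, against 31% and 16.6% of all genes. EPDCs against E11.5 gave 3 higher and 0 lower (0 at an unadjusted p under 0.05), against 13.8% and 23.6%, and EPDCs against E17.5 gave 2 higher and 0 lower (0 at an unadjusted p under 0.05), against 16.7% and 37.4%. On the rank percentile and fold enrichment scales none of these gains passed by limma.

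**Figure D4:**
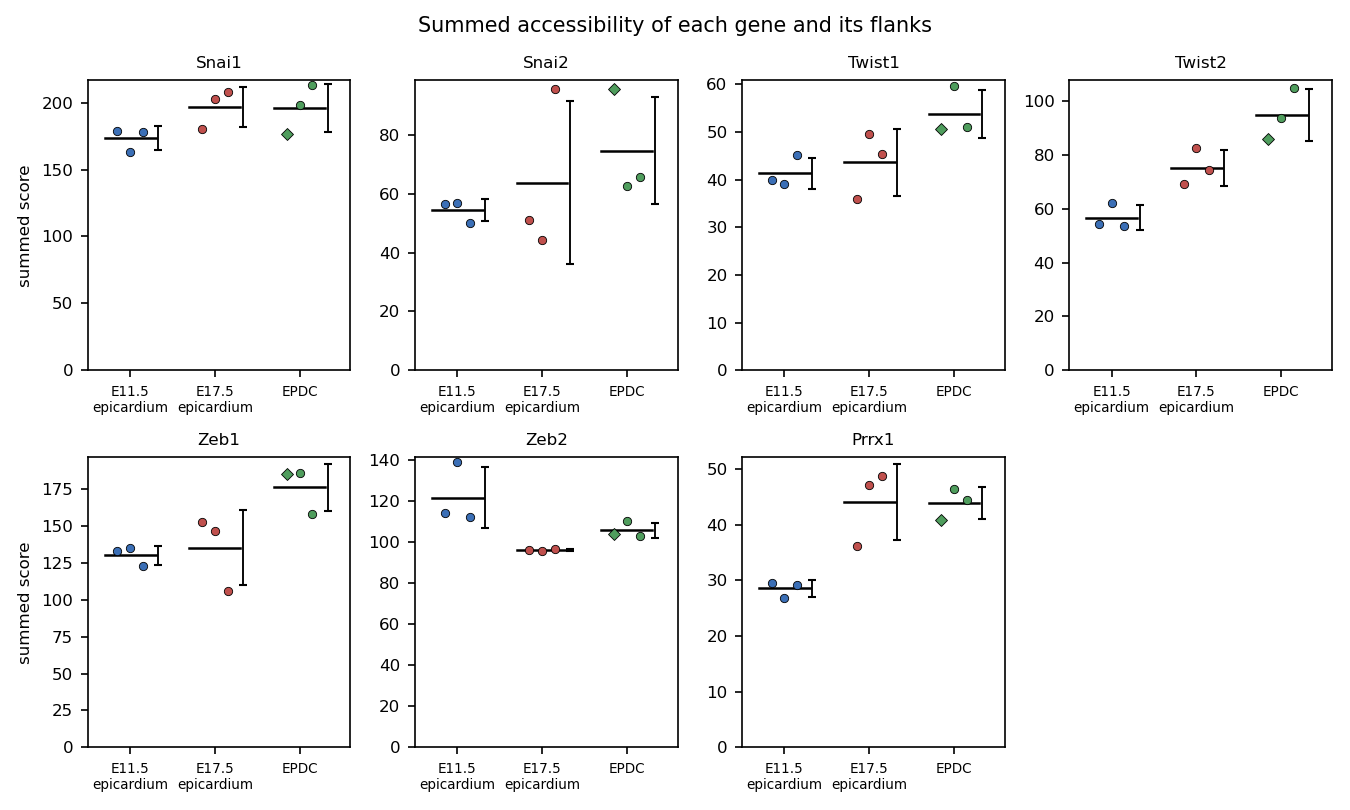
Summed score of all summits inside each gene or within 50 kb of it (vertical axis, from 0) in the 9 libraries, by group. Points are libraries, the diamond is the E12.5 EPDC library, lines are group means and bars the SD (n = 3). Twist2 rises over the groups, Prrx1 is low at E11.5, Zeb1 is highest in EPDCs, and Snai2 spreads widely within E17.5 and EPDCs.

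Other genes linked to EMT were read in the same fit from a list of 48. It holds signals that induce EMT, partners of the members and other regulators, epithelial genes and keepers of the epithelial state, and mesenchymal genes. Of 14 epithelial genes, 0 rose (0 at an unadjusted p under 0.05 by limma) and 9 fell in EPDCs against E11.5, with a median of −0.47 (all genes −0.05), and 1 rose and 9 fell against E17.5 (median −0.57, all genes −0.14). From E11.5 to E17.5, 9 rose and 1 fell. Of all genes, as given above, 13.8% rose and 23.6% fell in EPDCs against E11.5, 16.7% and 37.4% against E17.5, and 31% and 16.6% from E11.5 to E17.5. Krt19, a keratin of simple epithelia, summed to 105 ± 5.3 at E11.5, 143 ± 13.2 at E17.5 and 34.7 ± 8.55 in EPDCs (SD, n = 3, EPDC − E11.5 −1.59, adjusted p = 5.49e-06). Krt8 behaved alike (190 ± 1.92, 239 ± 7.85 and 113 ± 3.44, EPDC − E11.5 −0.75, adjusted p = 2.05e-06). Genes that lie close together, such as Krt8 and Krt18, share summits in their 50 kb flanks, so the counts are not of independent genes. Cldn1, a tight junction claudin, stood at 63.5 ± 3.36, 120 ± 8.16 and 40.6 ± 4.49 (EPDC − E17.5 −1.54, adjusted p = 4.28e-07). An exception was Grhl2, a keeper of the epithelial state, which fell from 48.5 ± 5.31 at E11.5 to 15.8 ± 0.0933 at E17.5 (−1.55, adjusted p = 1.82e-05) and was 26.7 ± 3.84 in EPDCs.

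Of 12 mesenchymal genes, 5 rose and 0 fell (2 at an unadjusted p under 0.05 by limma) in EPDCs against E11.5, against 13.8% and 23.6% of all genes. From E11.5 to E17.5, 4 rose and 3 fell, near the 31% and 16.6% of all genes, and 5 rose and 4 fell in EPDCs against E17.5, against 16.7% and 37.4%. Postn, a matricellular protein of fibroblasts, summed to 52.2 ± 3.82 at E11.5, 35.3 ± 2.95 at E17.5 and 81.7 ± 15 in EPDCs (SD, n = 3, EPDC − E17.5 1.18, adjusted p = 3.87e-05). Cdh2, which encodes N-cadherin, was low at E17.5 (206 ± 9.63, 129 ± 12.3 and 214 ± 1.32, E17.5 − E11.5 −0.67, adjusted p = 4.98e-05), the order seen at Snai2 +6.09 kb. Mmp14, Mmp2, Col1a1 and Pdgfrb, the 4 that fell in EPDCs against E17.5, instead had their highest mean at E17.5. Mmp14 summed to 158 ± 4.01, 243 ± 9.34 and 142 ± 6.84 (EPDC − E17.5 −0.77, adjusted p = 2.16e-06). Mmp2 had means of 86.2, 140 and 93.1 (EPDC − E17.5 −0.59, adjusted p = 0.000406). Among 10 signals, 3 rose and 0 fell (0 at an unadjusted p under 0.05 by limma) at E17.5, a count of rises near the 31% of all genes, with Tgfbr2, a TGF-β receptor, at 67.2 ± 8.32, 150 ± 5.87 and 71 ± 7.88 (E17.5 − E11.5 1.15, adjusted p = 1.91e-05). EPDCs against E11.5 gave 0 signals higher (1 at an unadjusted p under 0.05) and 2 lower, against 13.8% and 23.6% of all genes, and against E17.5 1 higher and 3 lower, against 16.7% and 37.4%. The 12 partners were split in each comparison, with 4 higher and 3 lower at E17.5, near the background, and 3 in each direction in both EPDC comparisons. Yap1, a coactivator of TEAD factors, was higher in EPDCs (89.9 ± 0.655, 85.5 ± 9.95 and 134 ± 14.2, EPDC − E11.5 0.57, adjusted p = 0.00129).

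The promoters of cell type markers were read beside these results. The 12 epicardial markers summed to 251 to 281 at E11.5, 285 to 308 at E17.5, 225 in E12.5 EPDCs and 163 to 176 in E13.5 EPDCs. Upk3b, a mesothelial uroplakin, had a promoter score of 9.19 in the E12.5 EPDC library and of 1.53 and 2.15 in those of E13.5, against 44.5 to 52.9 in epicardium. The list did not move as 1, since Upk3b, Upk1b, Krt8, Krt19 and Lrrn4, 5 of the 12, had all EPDC libraries below all epicardial ones. Wt1 scored 53.3, 40.7 and 28.7 in EPDCs against 24.3 to 37.2 in epicardium, Tbx18 59.7, 40.4 and 35 against 31.1 to 42.7, and Tcf21 and Bnc1 overlapped. The 10 mesenchymal markers summed to 145 to 178 at E11.5, 172 to 212 at E17.5 and 179 to 204 in EPDCs. The EPDC libraries stood just above all E11.5 libraries, and E17.5 overlapped both. This list was split too, with Postn at 8.43 to 12.3 in EPDCs against 0 to 4.16 in epicardium, and Dcn at 18.5 to 21.3 against 23.7 to 37. The part of these in the results was not tested. Of 8 endothelial markers, Cdh5, Tie1 and Emcn were at 0 in every library, and the sum was 35.6 to 42.1 at E11.5, 38.3 to 46 at E17.5 and 45 to 49.7 in EPDCs. Pecam1, which encodes the CD31 used to gate out endothelium, scored 1.64 and 1.48 in the E13.5 EPDC libraries and 0 in all others, and Kdr scored 25.3 to 30.1 in EPDCs against 16.8 to 23.2 in epicardium, and the part of these in the EPDC results was not tested. The 8 cardiomyocyte markers summed to 59.1 to 68.6 at E11.5, 36 to 41.6 at E17.5 and 49 to 61.5 in EPDCs, with Myh6 at 0 in every library, and the 8 blood markers to 0, 2.31 to 4.44 and 0 to 1.65, with Ptprc and Spi1 at 0. The cardiomyocyte sum is lowest at E17.5, as are Snai2 +6.09 kb and Zeb2 +10.8 kb, and its part in those results was not tested. In sorted bulk samples, fewer cells with a region open and less opening per cell cannot be told apart.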

How the data were processed

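Bulk ATAC-seq of 10 samples was deposited as 9 peak lists. According to the methods, the authors ran the nf-core atacseq pipeline on mm10, removed duplicate, multimapped, blacklisted and mitochondrial reads, and called summits with MACS2 2.2.9.1 on fragment pairs, so a peak covers whole fragments and not cut sites. The deposited lists give per summit a fold enrichment, a ratio over local background, a −log10 p and a −log10 q, and as deposited none is normalised between libraries. In their own analysis the authors divided each −log10 p by its sample's total, and the score used here is scaled the same way. The lists hold no reads, so the read depth behind a value is not given in the sources used here, and no counting interval was made.

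Summits on chromosomes 1 to 19 and X were extended by 250 bp on each side, and weaker overlapping windows were removed, after the authors' scheme. A region was called in a library where a summit fell within 250 bp of its centre. A promoter is a region within 1 kb of the start of a protein-coding transcript, and where several lie there, the one with the highest mean score is reported. Scores plus a pseudocount of 1 were log2-transformed and fitted with limma 3.58.1 (trend, 3 groups, two-sided, Benjamini-Hochberg over all regions or genes). Replicates are separate pools of littermate hearts, 3 per group. Gene models were GENCODE M21, and sequences come from GRCm38.p6. The fit was tested on simulated data. Alternatives were a rank percentile, the fold enrichment, quantile normalisation, a stricter q, equal numbers of top summits (94907), a pseudocount of 0.1, overlap of intervals, regions called in 1 or more libraries, 2 groups only, 20 kb flanks, other promoter definitions, a replicate block and each library left out.

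The regions named are, for each gene, the promoter and the strongest distal region, and per comparison the 6 largest differences in each direction, and any other is said to be chosen after its values were seen. The members and lists were chosen with earlier results of these data known. The other genes named are up to 4 in each direction of the list of 48, with Mmp14, Col1a1 and Pdgfrb added after their values were seen. Zeb1 sequence is not shown.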

Additional observations from a re-analysis of the deposited data

Results flagged for a closer look

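The EPDC lists held summits outside the chromosomes analysed, while the 6 epicardial lists held 0 on scaffolds and 0 on the mitochondrial genome. There were 221 scaffold and 47 mitochondrial summits in the E12.5 EPDC library, 218 and 45 in E13.5 EPDC replicate 1, and 227 and 25 in E13.5 EPDC replicate 2. They were left out of all scores. The 10 highest summits of the used chromosomes carried 2.83, 1.08 and 0.961% of the score of these 3 libraries, against at most 0.144% in an epicardial library.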

How the results depend on the processing

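The member counts held within 1.5 times their reported value under most alternatives, with the exceptions given here, whose causes were not tested. Member regions higher at E17.5 than at E11.5 numbered 17, and 10 by rank percentile and 8 by fold enrichment. Those lower in EPDCs than at E11.5 numbered 21, and 12 by fold enrichment and 13 after quantile normalisation. Those lower in EPDCs than at E17.5 numbered 16, and 10 by rank percentile. The shares of members and of all regions under these settings are given above. For summed scores, genes higher at E17.5 fell from 2 to 0 by rank percentile and fold enrichment (0 at an unadjusted p under 0.05 by limma), and genes lower from 1 to 0 by fold enrichment (1 unadjusted) and with equal numbers of summits (0 unadjusted). Genes higher in EPDCs than at E11.5 fell from 3 to 0 by rank percentile and fold enrichment (0 unadjusted) and rose to 5 with 1 value per region, an alternative added after the data were seen, while 1 gene instead of 0 was lower with 20 kb flanks. Genes higher in EPDCs than at E17.5 fell from 2 to 0 by rank percentile and fold enrichment (1 unadjusted in each) and to 1 with 20 kb flanks, and rose to 5 with 1 value per region. Promoters higher at E17.5 fell from 6 to 0 by rank percentile (3 unadjusted) and 2 by fold enrichment. By fold enrichment, promoters higher in EPDCs than at E11.5 fell from 2 to 1, lower from 1 to 0 (1 unadjusted), and higher than at E17.5 from 1 to 0 (2 unadjusted). Taking the promoter at the gene's 5′ end gave 0 lower in EPDCs than at E11.5 (0 unadjusted).

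Over all genes, summed scores higher and lower at E17.5 numbered 6113 and 3276, but 294 and 2868 by rank percentile, 441 and 1899 by fold enrichment and 3025 and 3220 after quantile normalisation. For EPDCs against E11.5 they were 2711 and 4658 (766 and 3381, 959 and 1463, 3030 and 4595), and against E17.5 3287 and 7360 (2255 and 2548, 2127 and 1521, 3841 and 5151). Over all regions, EPDCs against E11.5 gave 20928 and 41492, and 24538 and 31163 after quantile normalisation. The directions of summed scores are thus relative to the scale. Signs turned for Zeb1 in EPDCs against E11.5 with 20 kb flanks (−0.15), and with interval overlap for the Snai1 regions at −45.9 kb (0.70 at E17.5 and 0.13 in EPDCs, against −1.74 for each) and +5.3 kb (−0.41 at E17.5, against 1.52). Counted over the named regions and settings, without the 4 Snai1 regions that entered the test only through the libraries where they were high, passing differences stayed past the threshold in 578 cases, lost it in 68 and turned in 1, and with 1 library left out stayed in 577 and lost it in 44. At Zeb1 −0.545 kb (EPDC − E17.5), Snai1 +27.7 kb and Zeb2 +141 kb (E17.5 − E11.5) and Twist2 +15.4 kb the call was among those lost by fold enrichment.

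With each library left out, member regions higher at E17.5 numbered 9 to 17 (9 without E17.5 replicate 3, 11 without replicate 2), lower 23 to 31, higher in EPDCs than at E11.5 15 to 23, lower 19 to 22, higher than at E17.5 25 to 34 and lower 13 to 18. Genes with a higher sum at E17.5 numbered 1 (without E17.5 replicate 2) to 3, a lower sum 0 (without E11.5 replicate 2, 1 at an unadjusted p under 0.05) to 1, higher in EPDCs than at E11.5 2 to 4, and than at E17.5 0 (without E13.5 EPDC replicate 1, 2 unadjusted) to 2. Promoters higher at E17.5 numbered 2 (without E17.5 replicate 3) to 6, higher in EPDCs than at E11.5 2 to 4 (without E11.5 replicate 1), and than at E17.5 1 to 2 (without E12.5 EPDC). With the replicate number as a replicate block, E17.5 against E11.5 gave 15 regions higher and 29 lower, 2 genes higher and 1 lower, and 5 promoters higher (all but Twist1 and Prrx1, the latter with an adjusted p of 0.0747) and 0 lower. Same-numbered libraries did not deviate together (r = 0.031, 0.060 and −0.034), so the numbers do not pair them. The lists give no reads, so depth limits on weak regions called in few libraries cannot be given.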

Other observations

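Letters of binding motifs were counted over the whole of each region, on both strands. Over all 140 member regions the shares lay near those of all regions, with 24.3% against 26.4% for the SNAI/ZEB E-box CAGGTG, 40% against 35.4% for CATCTG, 25.7% against 22.8% for TGANTCA, 31.4% against 33.1% for GGAATG, 27.9% against 29.8% for AGATAA and 2.14% against 1.97% for AGGTGTGA. The 32 member regions higher in EPDCs than in E17.5 epicardium held CATCTG in 19 (59.4%, against 38.5% of all regions called that way), GGAATG in 16 (50%, against 32.7%) and TGANTCA in 11 (34.4%, against 16.7%). Of the 16 lower regions, 9 held TGANTCA (56.2%, against 35%) and 3 held CATCTG (18.8%, against 34.4%). Regions of 1 gene are not independent, and these shares are descriptions with no test. Median GC content was 50.5% in member regions and 48.3% in all regions.

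Genes of similar profile were sought by Pearson's r of the summed score over the 9 libraries. The nearest were Rnaseh2b for Snai1 (0.965), Wbp4 for Snai2 (0.960), Plekhm2 for Twist1 (0.939), Ddx42 for Twist2 (0.976), Wrn for Zeb1 (0.953), Gng2 for Zeb2 (0.941) and Nckap1 for Prrx1 (0.992). With 9 libraries in 3 groups and 19702 genes, such values are descriptions of these libraries.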
